A study of Mus musculus with 2 samples.

Results

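The S100 family alarmins measured here were S100a1, S100a4, S100a6, S100a8, S100a9, S100a10, S100a11 and S100a13, chosen by symbol, which gave 8 of the 19059 genes in the count matrices. They were followed across cell types in orthotopic mouse glioblastoma tumors from 1 line of murine glioma stem cells (mGSC), Trp53+/- and Nf1+/-, grown in C57BL/6J mice 6 to 8 weeks old. Every tumor carried this genotype, in both groups. The treatment was vehicle, or Xevinapant, an oral inhibitor of IAP proteins and mimic of the mitochondrial protein SMAC, at 50 mg/kg by daily oral gavage for 7 days. Single-cell RNA was read with a probe set, 4 matrices for each group.

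S100 proteins are small calcium-binding proteins of the EF-hand type that mostly work as dimers. Inside the cell they regulate enzymes, annexins and the cytoskeleton, and several leave stressed or dying cells as alarmins that signal through receptors such as TLR4 and RAGE. S100A8 and S100A9 form calprotectin, an abundant protein of the neutrophil cytosol, whereas S100A1 is known from muscle, neurons and glia.

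The 8 matrices held 71835789 to 300206053 UMIs each, in 56943 barcodes, of which 54574 were kept. Matrices 1 and 3 of the vehicle group had the same makeup of cells within sampling noise, as did matrices 1 and 2 and matrices 3 and 4 of the Xevinapant group, so each such pair was summed and counted as 1 sample, although the study had 4 mice in each group. Gene levels differed by 1.16 times sampling noise in the vehicle pair and by 2.261 and 2.463 times in the Xevinapant pairs, against at least 4.333 times between other matrices of a group. Counting each matrix as 1 sample gave 1 call with treatment over the cell types, 4 over the tumor states and 4 in all cells, against 0, 0 and 0. This left 3 vehicle samples (vehicle 1+3, vehicle 2 and vehicle 4) and 2 Xevinapant samples (Xevinapant 1+2 and Xevinapant 3+4), and nothing in the labels says which mouse each came from. The names of the Xevinapant matrices read vehicle, and their group was taken from the sample labels. Vehicle and Xevinapant matrices of the same number shared 178 to 528 barcodes, 2826 when counted on both sides. The batch and the library pool given in the labels coincided with the treatment, so they cannot be told apart from it.

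Cells were typed by UMIs of marker genes outside the S100 family, which gave 39458 malignant cells, 1312 macrophages, 630 microglia, 481 fibroblasts, 286 monocytes, 256 neutrophils, 213 endothelial cells, 172 dendritic cells, 139 T cells and smaller groups of NK, B, erythroid and mural cells. Malignant cells were those with glial markers such as Olig1, Olig2 and Pdgfra. No copy-number step was used, whereas the paper inferred copy number to tell tumor from normal cells. Host glia with these markers would therefore be counted as malignant. Another 465 barcodes had immune markers without one type, 1206 had markers of more than 1 lineage and 9747 stayed unassigned. Of the markers that chose the neutrophils, Csf3r stood at 5312 and Mmp9 at 2697 CPM (UMIs of a gene per 1000000 UMIs) in them, and Camp was at 0. Of the early granule genes that the gate did not use, Elane, Mpo and Ctsg were at 0 too and Prtn3 was at 21.06 CPM. Ltf and Ngp, granule genes among the gate markers, stood at 137.2 and 4.062 CPM. Levels are CPM of the summed UMIs of a type in a sample with at least 10 cells of that type, unless another number is given. Each gene has its own probes, so levels were compared between cells and not between genes.

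All 8 genes lie on mouse chromosome 3 (GRCm38, the build also called mm10), in 2 groups 2825 kb apart. S100a1 (chr3:90511034-90514392, minus strand), S100a13 (chr3:90514435-90524581, plus), S100a4 (chr3:90603771-90606045, plus), S100a6 (chr3:90612882-90624181, plus), S100a8 (chr3:90668978-90670035, plus) and S100a9 (chr3:90692632-90695721, minus) share 184.7 kb. S100a11 (chr3:93520488-93526287, plus) and S100a10 (chr3:93555080-93564643, plus) share 44.16 kb. S100a1 and S100a13 point away from each other, and 42 bases separate their annotated starts, shown here because both genes had their 3 highest means among tumor states in committed OPC-like, oligodendrocyte-like and OPC-like cells:

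S100a1 to S100a13: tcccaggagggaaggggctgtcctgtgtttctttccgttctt

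The stretch (chr3:90514393-90514434, plus strand) had a GC content of 54.76% and none of the 6 motifs searched. RefSeq windows of the 250 bases before the start (GRCm38.p6) were found for 7 members, all but S100a10. Motifs were searched on both strands. TATAAA was present in 12.37% of 32851 RefSeq windows of this length, GGGCGG (GC box) in 32.74%, CCAAT in 33.85%, TGANTCA (AP-1) in 6.749%, TTNNGNAA (C/EBP, a family of myeloid factors) in 36.85% and AGGAAG (PU.1, an ETS factor of myeloid cells) in 29.48%. The windows of the calprotectin genes are shown because these genes had almost the same pattern over cell types, with motif matches in capitals:

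S100a8: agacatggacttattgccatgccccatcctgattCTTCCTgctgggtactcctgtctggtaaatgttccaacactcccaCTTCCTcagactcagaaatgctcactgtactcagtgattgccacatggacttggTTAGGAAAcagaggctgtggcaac

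S100a9: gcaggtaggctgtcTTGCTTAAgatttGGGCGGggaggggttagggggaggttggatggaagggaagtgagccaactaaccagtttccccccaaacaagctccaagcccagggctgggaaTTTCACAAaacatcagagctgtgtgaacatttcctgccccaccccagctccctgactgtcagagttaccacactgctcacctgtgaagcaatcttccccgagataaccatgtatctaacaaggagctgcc

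For S100a8, 157 bases are printed (chr3:90668821-90668977, plus strand), and the 93 nearest the RefSeq start, which another transcript model covers, are left out. They held 1 C/EBP match and 2 PU.1 matches, and the bases left out held a TATAAA 24 bases before the start. For S100a9 (chr3:90695722-90695971, minus strand), there were 2 C/EBP matches and 1 GC box. The C/EBP letters, found in both windows, are common to more than 1 in 3 windows of the genome, and no match is shown to be a binding site. The matches shown did not overlap each other.

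Most UMIs of the calprotectin genes came from few cells. Neutrophils were 0.469% of the kept cells and held 71.5% of all S100a8 and 70.1% of all S100a9 UMIs, while malignant cells, 72.3% of cells, held 7.405% and 9.969%. In 4 other members most UMIs were malignant, with shares of 94.8% for S100a1, 92.4% for S100a13, 72.1% for S100a10 and 58.6% for S100a4. S100a6 and S100a11 were spread more widely. Malignant cells held 35.4% of S100a6 and 37.6% of S100a11, and fibroblasts, with far fewer cells, 20.6% and 13.1%.

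**Figure D1:**
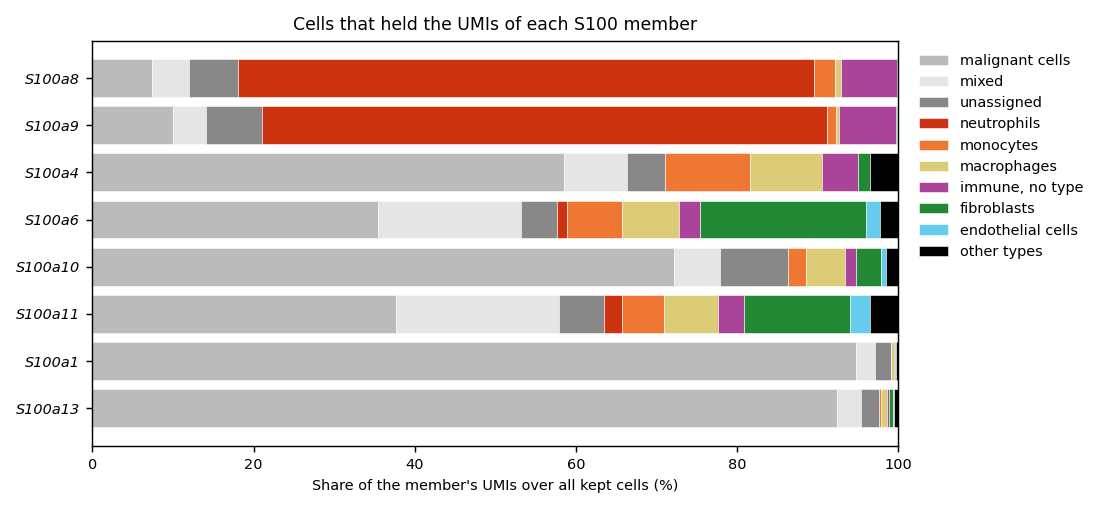
Share of each member's UMIs (horizontal axis, percent of UMIs over the kept cells) contributed by each cell type (colored segments), with 1 bar for each gene. S100a8 and S100a9 are mostly neutrophil (71.5% and 70.1%), and S100a1 is mostly malignant (94.8%).

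S100a8, the smaller chain of calprotectin, was measured in neutrophils at 14250 CPM in vehicle 1+3, 17070 in Xevinapant 1+2 and 19980 in Xevinapant 3+4. Vehicle 2 and vehicle 4, with 5 and 9 neutrophils, were under the 10-cell minimum and stood at 35330 and 13700. The mean of the 3 samples was 17100 ± 2865 CPM (SD, n = 3). In monocytes, of which vehicle 2 had only 4 cells and was left out, the level was 15.48 and 0 in vehicle 1+3 and 4, and 254.5 and 118 in the Xevinapant samples 1+2 and 3+4. Macrophages stood at 3.454 to 15.65 CPM in the 5 samples and malignant cells at 0.2204 to 2.012. No UMI was seen in 630 microglia, which allows up to 0.581 CPM over them, and T cells, B cells and erythroid cells were also at 0 in the samples with at least 10 of them.

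S100a9, the partner chain, gave 16960, 23800 and 27370 neutrophil CPM in vehicle 1+3, Xevinapant 1+2 and Xevinapant 3+4, a mean of 22710 ± 5290 (SD, n = 3). Monocytes were at 0 in both vehicle samples, and at 214.7 and 11.32 in Xevinapant 1+2 and 3+4. The level in macrophages was 0 to 8.929 CPM and in malignant cells 0.3949 to 4.226. Neutrophils exceeded monocytes by 7.30 ± 0.45 (log2, SE) for S100a8 (edgeR with a sample block, adjusted p = 1.226e-15) and by 8.84 ± 0.56 for S100a9 (adjusted p = 5.221e-16). For S100a8, monocytes exceeded NK cells by 3.46 ± 1.02 (adjusted p = 0.01391) and macrophages exceeded malignant cells by 3.36 ± 0.46 (adjusted p = 2.738e-08), whereas no other neighbors in the order of S100a9 passed. The monocyte level rests on few cells, since 6 monocytes with a median of 3 neutrophil markers held 86.96% of the UMIs of the pair. The NK samples with at least 10 cells were all Xevinapant samples.

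Thinned to 1000 UMIs per cell, 86.34% of neutrophils had a UMI of S100a8 and 85.64% of S100a9 (means over samples), against 87.91% and 88.87% without thinning. The thinned shares rest on fewer cells, 21 of 26, 145 of 158 and 55 of 58 neutrophils in vehicle 1+3, Xevinapant 1+2 and Xevinapant 3+4. The S100a8 share in malignant cells was 0.0917% thinned and 1.125% without thinning, at a median of 15845 UMIs per cell against 1486.5 in neutrophils. Over all samples, 213 of 256 neutrophils (83.2%, exact 95% interval 78.05 to 87.57) and 404 of 39458 malignant cells (1.024%, 0.9269 to 1.128) had a UMI of S100a8. Such intervals cover counting error only. Both genes were seen together in 205 of the 234 neutrophils that had either. Their summed UMIs had a median of 237.5 per 10000 in a neutrophil, from 7.654 at the 10th percentile to 1044 at the 90th, and 22 neutrophils had none.

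How the UMIs of the pair were spread over cells outside neutrophils differed between types. In monocytes, 86.96% of the 460 UMIs were in the 6 cells with at least 10 of them, which had a median of 3 neutrophil markers against 1 in the other monocytes, and 253 of 286 monocytes had none. In malignant cells, 39.93% of 2284 UMIs were in 12 cells with a median of 5 neutrophil markers against 0, and 38207 cells had none. Macrophages had 126 UMIs of the pair, and 1251 of 1312 had none.

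The split between the chains was compared as the S100a8 share of the UMIs of both. In neutrophils it was 42.2% (41.48 to 42.92), and 41.77 to 45.66% in the 5 samples. Immune barcodes without a type (40.82%, 38.54 to 43.12), mixed barcodes (43.93%, 40.98 to 46.92) and unassigned barcodes (38.67%, 36.34 to 41.03) lay within 4 percentage points of it. The intervals take each UMI as independent, whereas 10 mixed cells held 93.75% of the pair's UMIs in mixed barcodes. In immune barcodes without a type, 36 cells held 94.1%. Overlap of the intervals therefore does not show whether types differ. In malignant cells the share was lower at 34.72% (32.77 to 36.71), with samples between 32.25 and 39.44%. Monocytes (60.87%, 56.24 to 65.36) and macrophages (68.25%, 59.37 to 76.26) had a higher share, although in monocytes it was 54.23% in Xevinapant 1+2 and 91.25% in Xevinapant 3+4.

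**Figure D2:**
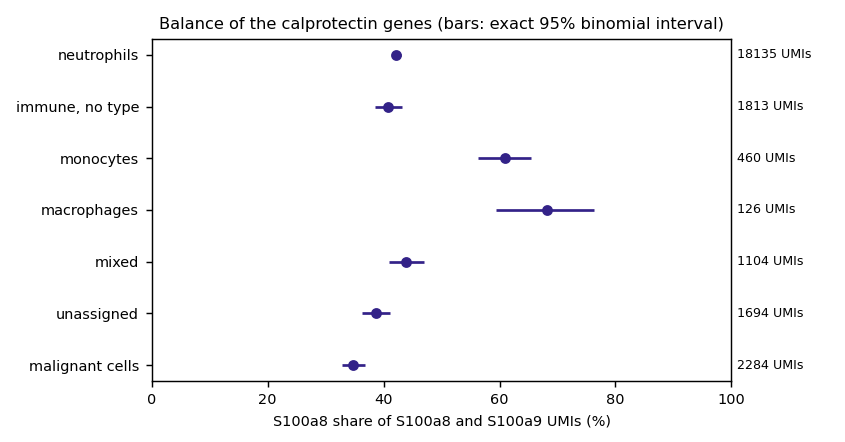
S100a8 share of the S100a8 and S100a9 UMIs (horizontal axis, percent) in each cell type, pooled over samples, with exact 95% binomial intervals and the number of UMIs at the right. The intervals take each UMI as independent, though many lay in few cells. Neutrophils are at 42.2%, malignant cells at 34.72%, and monocytes and macrophages at 60.87% and 68.25%.

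S100a4, also called metastasin, binds non-muscle myosin and is known from motile and monocytic cells. It was highest in monocytes at 1671 and 1918 CPM in vehicle 1+3 and 4 and 2154 and 2216 in the Xevinapant samples, a mean of 1990 ± 248.3 (SD, n = 4). S100a4 was not among the markers of the gate. The paper, however, marked monocytes by S100a4 together with Adgre5, Fgr and Ccr2, which the gate used, so this level is no independent check of it. Dendritic cells (775.4 ± 704.1 CPM, n = 5), NK cells (753.7 ± 271.8, n = 2) and T cells (664.7 ± 245.3, n = 4) followed, and these neighbors did not differ beyond their spread. Both NK samples were Xevinapant samples, of 13 and 18 cells, while the types beside them hold vehicle samples too, so the rank of NK cells for any member compares unlike sets of samples. Macrophages were at 267.2 ± 173.8 CPM (n = 5), 1.27 ± 0.33 (log2, SE) below dendritic cells (edgeR, adjusted p = 0.004279) and 1.71 ± 0.35 above fibroblasts (adjusted p = 5.2e-05). Malignant cells (26.14 ± 15.7 CPM, n = 5) exceeded microglia (4.657 ± 3.155 CPM, n = 5) by 1.99 ± 0.48 (adjusted p = 0.0003489). Thinned to 1000 UMIs, 64.88% of monocytes had a UMI of S100a4.

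S100a6, or calcyclin, which is tied to cell cycle entry and the cytoskeleton, was highest in monocytes (575.5 ± 144.7 CPM, n = 4), fibroblasts (533.3 ± 142.2, n = 5), neutrophils (436.7 ± 111.8, n = 3) and NK cells (391.7 ± 158.7, n = 2). None of the neighbors in its order of cell types passed the test. The lowest levels among types with the gene were in malignant cells, 2.919 to 10.09 CPM, and microglia, 0 to 6.425. The lowest fibroblast sample stood at 347.4 CPM, so fibroblasts did not overlap with either.

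S100a10 is the p11 chain that binds annexin A2 at the membrane and, unlike its relatives, has lost calcium binding. NK cells (1322 ± 137.9 CPM, n = 2), T cells (958.1 ± 277.6, n = 4) and monocytes (870.3 ± 248.5, n = 4) were highest, and NK cells were not apart from T cells (0.22 ± 0.42, adjusted p = 0.9426). Monocytes exceeded endothelial cells (461.2 ± 56.52 CPM, n = 5) by 0.90 ± 0.30 (adjusted p = 0.01364). Neutrophils, at 84.98 ± 48.42 CPM (n = 3), lay 1.82 ± 0.46 below dendritic cells (adjusted p = 0.002249). Malignant cells (61.27 ± 22.0 CPM) and microglia (40.44 ± 11.66 CPM) were near the bottom.

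S100a11, calgizzarin, which works with annexin A1 in membrane repair and growth control, was highest in neutrophils at 1836 CPM in vehicle 1+3, 1879 in Xevinapant 1+2 and 2010 in Xevinapant 3+4. The 3 samples lay close together (1908 ± 90.63, n = 3) and exceeded monocytes (934 ± 337.9, n = 4) by 0.98 ± 0.35 (adjusted p = 0.03666). Endothelial cells (839.5 ± 207.9 CPM) and fibroblasts (779.9 ± 169.1 CPM) followed. At the low end the steps were large. Macrophages (297 ± 73.46 CPM) exceeded microglia (57.31 ± 15.78) by 2.45 ± 0.31 (adjusted p = 4.343e-08), and microglia exceeded malignant cells (15.49 ± 6.255) by 2.19 ± 0.31 (adjusted p = 1.666e-08).

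S100a1 alone had its highest mean in malignant cells. It stood at 262.2, 168 and 109.7 CPM in vehicle 1+3, 2 and 4 and at 587.7 and 225.1 in Xevinapant 1+2 and 3+4, a mean of 270.5 ± 186.5 (SD, n = 5). The Xevinapant range overlapped the vehicle range, and the highest sample was more than 2 times the next. Macrophages (94.27 ± 12.66 CPM) and microglia (73.2 ± 22.92 CPM) were lower by 1.08 ± 0.20 and 1.47 ± 0.20 on the log2 scale (edgeR, adjusted p = 6.731e-06 and 9.419e-09). The malignant level was not apart from erythroid cells (160.1 ± 43.96 CPM, n = 4; 0.71 ± 0.43, adjusted p = 0.2791) or from B cells (3.26 ± 1.22, adjusted p = 0.06695). Over all samples, 64.29% of malignant cells had a UMI (63.82 to 64.76).

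S100a13 takes part in the release of proteins without a signal peptide. Outside B cells its means ran from 56.34 ± 37.18 CPM in neutrophils (n = 3) to 222.8 ± 71.77 in NK cells (n = 2), and no neighbors differed. B cells were at 0 in vehicle 1+3 and 2, the only samples with 10 of them, where 3 UMIs would be 260 and 198.6 CPM, while the 9 B cells each of Xevinapant 1+2 and 3+4 gave 177.8 and 80.28 CPM. Malignant cells were at 127.3 ± 56.62 CPM (n = 5). Over all 8 members, 14 of 88 pairs of neighboring cell types differed at an adjusted p under 0.05 (15.91%), where 8.29% of such pairs did over all genes; 6 of the 88 joined types both at 0. S100a4 and S100a11 had 4 each, S100a8 had 3, S100a10 had 2, S100a9 had 1 and S100a1, S100a6 and S100a13 none.

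**Figure D3:**
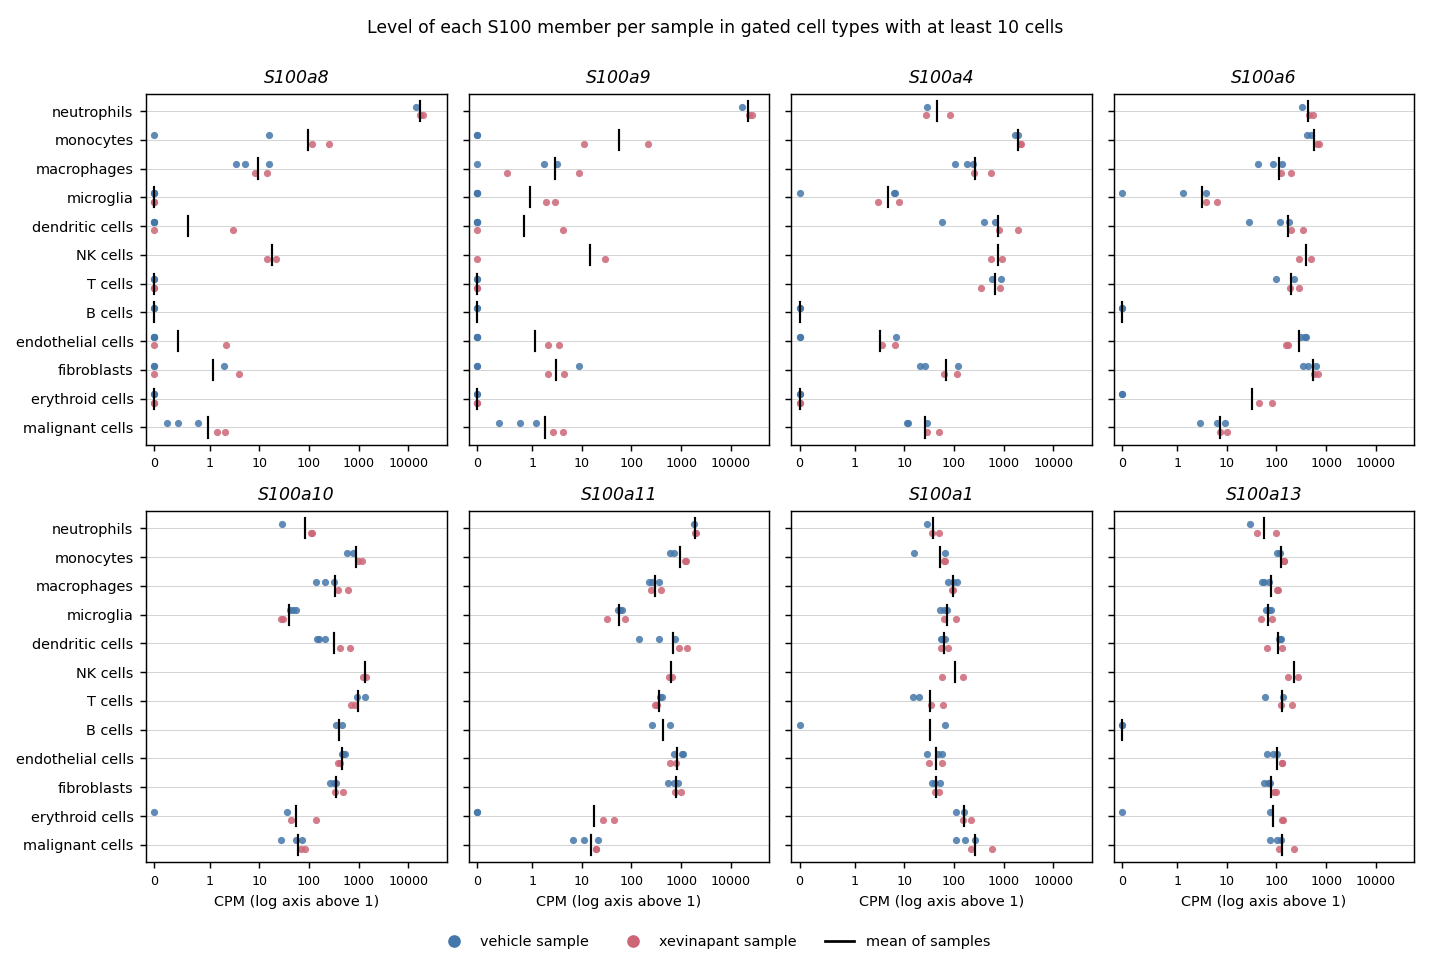
Level of each member (vertical axis, CPM, log scale above 1) in each cell type with at least 10 cells in a sample. Blue points are vehicle samples, red points Xevinapant samples and black bars their mean; S100a8 and S100a9 peak in neutrophils at means of 17100 and 22710 CPM, and S100a1 in malignant cells at 270.5 CPM.

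Within the tumor, malignant cells were split by state markers into oligodendrocyte-precursor-like (OPC-like), committed OPC-like, oligodendrocyte-like, astrocyte-like (AC-like), mesenchymal-like (MES-like) and neural-progenitor-like (NPC-like) cells. Host cells of these lineages were not told apart from tumor cells. S100a1 was highest in committed OPC-like cells (613.8 ± 274.8 CPM, n = 5) and oligodendrocyte-like cells (481.8 ± 183.8), which were not apart (0.28 ± 0.17, edgeR adjusted p = 0.2626). OPC-like cells (335.5 ± 219.2 CPM) were 0.70 ± 0.17 lower than oligodendrocyte-like cells (adjusted p = 0.0009912) and 0.98 ± 0.16 higher than MES-like cells (167.4 ± 114.8 CPM, adjusted p = 1.431e-05). S100a13 had the same top 3 states. Committed OPC-like cells were at 261.1 ± 73.06 CPM, 0.61 ± 0.15 above oligodendrocyte-like cells (adjusted p = 0.005419), and OPC-like cells were 0.75 ± 0.14 above AC-like cells (adjusted p = 5.763e-05).

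S100a10 and S100a11 had another order. S100a11 was highest in AC-like cells (40.22 ± 16.75 CPM), 0.93 ± 0.16 above MES-like cells (21.7 ± 10.86, adjusted p = 3.473e-05), which were 0.88 ± 0.23 above oligodendrocyte-like cells (adjusted p = 0.002667). S100a10 stood at 121.3 ± 39.17 CPM in AC-like cells and at 36.09 ± 14.16 in committed OPC-like cells, the latter 1.22 ± 0.26 below oligodendrocyte-like cells (adjusted p = 0.00113). S100a6 was 2.04 ± 0.26 higher in committed OPC-like (26.77 ± 12.22 CPM) than in OPC-like cells (adjusted p = 8.22e-07). S100a4 was 1.08 ± 0.29 higher in committed OPC-like (55.81 ± 16.18 CPM) than in AC-like cells (adjusted p = 0.002194). S100a8 and S100a9 gave no difference between neighboring states. In all, 11 of 40 neighboring states differed (27.5%), against 20% over all genes.

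**Figure D4:**
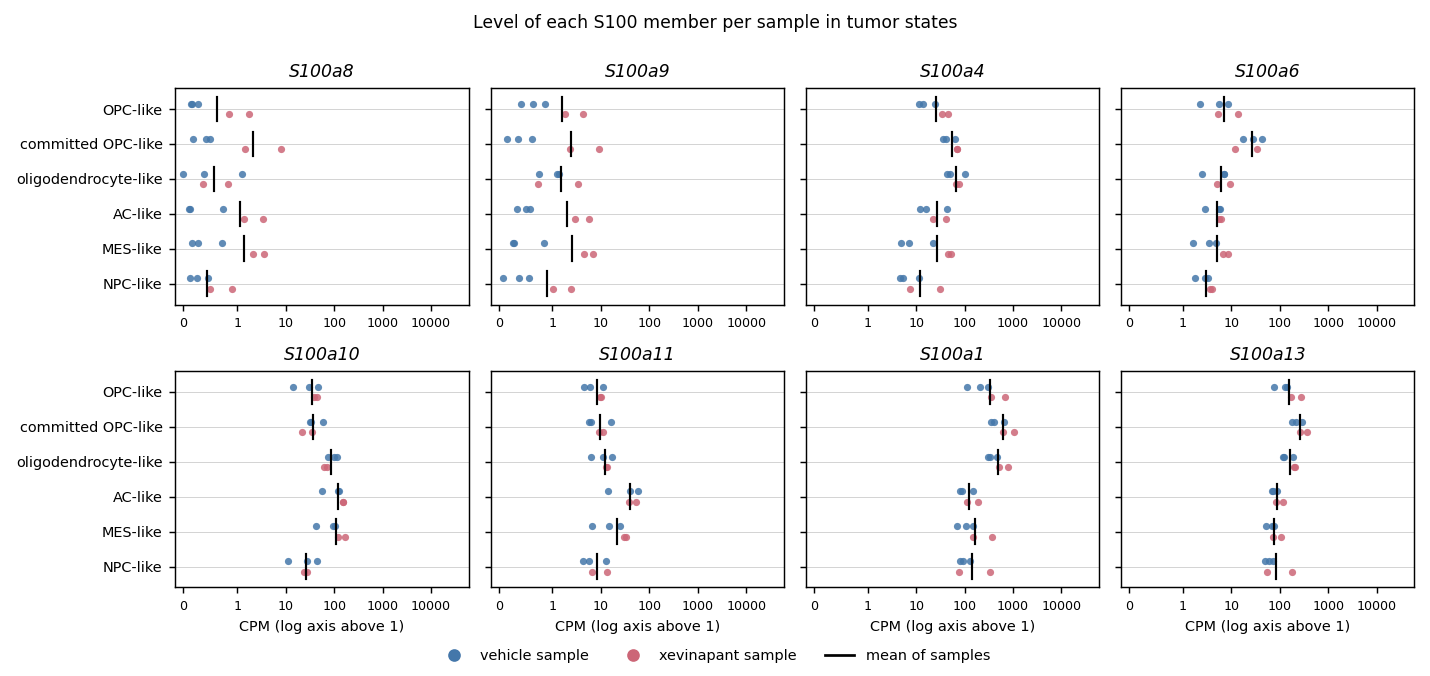
Level of each member (vertical axis, CPM, log scale above 1) in 6 states of the malignant cells. Points are samples (blue vehicle, red Xevinapant) and black bars means; S100a1 runs from 125.2 CPM in AC-like to 613.8 CPM in committed OPC-like cells, and S100a11 is highest in AC-like cells at 40.22 CPM.

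Genes with the most similar profile were found by the correlation of mean log levels over 12 cell types among 6462 genes. This is a description, since the types share libraries and differ in depth. S100a9 was closest to Cstdc4, Nlrp12 and Il1f9 (r = 0.98 each), and S100a8 to Rab44, Soat2 and Wfdc21 (0.94 to 0.95). S100a1 was closest to Atp1b2, a glial sodium pump chain (0.95), Fadd and Adgrb1 (0.94 each), and S100a6 to Anxa2 (0.91), the annexin known to bind S100a10, Inf2 (0.88) and Slc25a24 (0.87). S100a11 was closest to Plp2 (0.96), Cast (0.94) and Pfkp (0.93), and S100a10 to Anxa6 (0.91), Tmsb10 (0.88) and Utrn (0.87). S100a13 was closest to Mospd3 (0.99), Psma2 and Vps26b (0.98 each), and S100a4 to Nabp1, Emb and B4galt5 (0.89 each). Between members, S100a8 and S100a9 had r = 0.97, S100a4 and S100a6 0.71, S100a10 and S100a11 0.71, and S100a1 and S100a13 0.65, whereas S100a1 and S100a11 had -0.62. B cells, 1 of the 12 types, were at 0 for S100a13, where 3 UMIs would be 260 and 198.6 CPM in vehicle 1+3 and 2. The weight of that low-depth 0 in the r values of S100a13 was not tested.

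Vehicle and Xevinapant tumors were then compared, first over all kept cells, where fewer cells of a type and less RNA per cell cannot be told apart. S100a8 stood at 6.595, 2.527 and 1.575 CPM in vehicle 1+3, 2 and 4 and at 44.33 and 12.34 in Xevinapant 1+2 and 3+4. S100a9 stood at 8.043, 3.321 and 2.289 CPM against 62.16 and 17.7. The groups did not overlap for either gene, with log2 differences of 2.95 ± 0.72 and 3.09 ± 0.67 (SE). For all 8 members the difference was positive (50.7% of all genes), from 0.63 for S100a13 to 3.09 for S100a9, with 6 of 8 above in both Xevinapant samples (24.0% of all genes). None passed an adjusted p of 0.05 in edgeR (0.2466 to 0.328; 0.0% of genes passed), 6 had an unadjusted p under 0.05 (16.7% of genes) and DESeq2 called 4 (4.58% of genes). Neutrophils were 0.286, 0.0701 and 0.0629% of cells in vehicle 1+3, 2 and 4 and 1.78 and 0.382% in Xevinapant 1+2 and 3+4. In the same order, macrophages were 2.104, 0.9811 and 1.195% against 6.044 and 2.266%. Monocytes were 0.2313, 0.05606 and 0.2446% against 1.511 and 0.606%. Malignant cells were lower with Xevinapant, 73.88, 78.19 and 81.04% against 57.49 and 69.0%. The part of this makeup in the differences was not tested. The treatment could not be tested within neutrophils, since only 1 vehicle sample had at least 10 of them.

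In malignant cells, S100a9 was 1.204, 0.3949 and 0.7792 CPM in vehicle 1+3, 2 and 4 and 4.226 and 2.668 in the Xevinapant samples, a log2 difference of 2.08 ± 0.49 (edgeR adjusted p = 0.4291). S100a8 differed by 1.80 ± 0.52 (adjusted p = 0.4291). S100a4, at 28.18, 11.53 and 11.99 CPM in vehicle samples and 49.77 and 29.24 in Xevinapant samples, differed by 1.16 ± 0.42 (adjusted p = 0.4349). In these 3 genes both Xevinapant samples were above every vehicle sample (18.8% of all genes), and in S100a1 (1.14 ± 0.46, adjusted p = 0.4439) they overlapped. All 8 differences were positive (50.7% of genes), 4 had an unadjusted p under 0.05 (11.1% of genes) and none passed adjustment in edgeR (0.0% of genes), whereas DESeq2 called S100a9 (adjusted p = 0.01017, 1.97% of genes called). S100A1 is among the primers of the paper's PCR in Xevinapant-resistant glioma stem cells. The paper took the genes for that PCR from those up or down in its tumor cells, and its text gives no direction for S100A1.

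Neutrophil markers moved with the calprotectin genes in malignant cells. Their summed level over 12 genes was 2.38 to 3.03 CPM in vehicle and 4.77 to 5.50 CPM in Xevinapant samples, with Ly6g, Ltf or Camp at 0 in some samples. In malignant cells without any neutrophil-marker UMI, S100a9 was 0.707, 0.415 and 0.312 CPM in vehicle 1+3, 2 and 4 and 2.98 and 1.65 in Xevinapant 1+2 and 3+4. S100a8 was 0.366, 0.188 and 0.147 against 1.32 and 0.694 CPM. The markers are so low in malignant cells that a cell holding neutrophil RNA need not have a UMI of them. The macrophage marker list also had a higher sum with Xevinapant in malignant cells. The summed level of its 11 genes was 175.5 to 298.1 CPM in vehicle and 522.2 to 538.1 CPM in Xevinapant samples, with none at 0 in any sample, whereas that of the monocyte markers overlapped (384.9 to 499.4 and 390 to 500.1 CPM). The cells that made the RNA in these sums were not tested. The macrophage list holds Fn1, which the paper also measured by PCR in Xevinapant-resistant GSCs. In vehicle samples the monocyte list summed to 159.6 to 347.1 CPM in macrophages, less than in malignant cells. How much of either sum tumor cells made was not tested. The part of macrophage RNA in S100a4 and the other values, and of any other RNA in the low levels of the pair, was not tested further.

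By state, the pair differed by 3.63 ± 0.83 (S100a8) and 3.72 ± 0.73 (S100a9, adjusted p = 0.2246) in committed OPC-like cells, where S100a9 was 0.6234, 0.3615 and 0.163 CPM in vehicle 1+3, 2 and 4 and 2.279 and 8.936 in Xevinapant 1+2 and 3+4. Of the 254 UMIs of the pair in the 650 committed OPC-like cells of Xevinapant 3+4, 79.13% were in 1 cell with 7 neutrophil markers, and no cell of Xevinapant 1+2 had 10 or more. In MES-like cells S100a9 was 0.842, 0.2754 and 0.2825 CPM in vehicle 1+3, 2 and 4 and 6.889 and 4.486 in Xevinapant samples (3.61 ± 0.56, adjusted p = 0.2284). There 1 cell with 5 neutrophil markers held 52.05% of the pair's 219 UMIs in Xevinapant 1+2, and another held 59.43% of 281 in Xevinapant 3+4. In AC-like cells S100a9 differed by 3.21 ± 0.48 (adjusted p = 0.2268), and 1 cell held 45.68% of the pair's 81 UMIs in Xevinapant 1+2 and another 42.42% of 165 in Xevinapant 3+4, with 3 and 4 neutrophil markers. In MES-like cells all 8 members were higher with Xevinapant (49.1% of genes), 7 without overlap (18.8%) and 6 at an unadjusted p under 0.05 (13.5%). S100a4 in these cells was 22.19, 4.902 and 6.982 CPM against 53.4 and 45.43 (2.11 ± 0.54, adjusted p = 0.2346). In OPC-like cells all 8 members were also higher (50.5% of genes), and 5 had an unadjusted p under 0.05 (11.6%). Of the pair's 166 UMIs in OPC-like cells of Xevinapant 1+2, 30.72% were in 1 cell with 5 neutrophil markers. Over the 6 states, 41 of 45 tested differences were positive (48.6 to 50.8% of genes per state) and 21 had an unadjusted p under 0.05, with backgrounds of 5.81 to 17.1% per state. None passed adjustment in edgeR (0.0% of genes in every state). DESeq2 called 5, S100a9 in AC-like cells (1.51% of genes), S100a8 and S100a9 in MES-like cells (3.03%) and S100a4 and S100a9 in OPC-like cells (1.07%), and it called 2.35, 0.262 and 0.0268% of genes in committed OPC-like, NPC-like and oligodendrocyte-like cells.

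Among myeloid cells, S100a8 in monocytes (15.48 and 0 CPM in vehicle against 254.5 and 118) differed by 4.68 ± 0.84 (edgeR adjusted p = 0.1379), and DESeq2 called it (adjusted p = 0.02556, 0.171% of genes called). Without vehicle 4 the value was 3.60 (edgeR adjusted p = 0.4965), and without Xevinapant 1+2 or 3+4 it was 3.96 (0.02992) and 5.13 (2.632e-10). Without vehicle 1+3 the only vehicle sample was at 0, so that fit gives no size (adjusted p = 0.3883). Each of these fits leaves 1 sample in an arm, which is assumed to vary like those of the other, and says nothing on stability. Most monocyte UMIs of the pair were in 6 cells with neutrophil markers, as given above. In monocytes without a neutrophil-marker UMI S100a9 was at 0 in every sample and S100a8 had 5 UMIs, all in Xevinapant 3+4. The summed level of the 12 neutrophil markers in monocytes was 239.9 and 374.2 CPM in vehicle 1+3 and 4 and 318.5 to 609.4 CPM in Xevinapant samples, with Ly6g, Retnlg, Ngp and Camp at 0 in every sample, and its part in the result was not tested. That of the 12 malignant-cell markers was 503 and 1029 CPM in vehicle 1+3 and 4 and 376.7 to 377.3 CPM in Xevinapant samples, with none at 0, and its part was not tested either. S100a11 in monocytes was 704.1 and 588 CPM in vehicle and 1267 and 1177 in Xevinapant samples (0.94 ± 0.26, adjusted p = 0.3951). S100a4 differed by 0.30 ± 0.25 there. All 7 members tested in monocytes were higher (50% of genes), 6 without overlap (19.3%) and 4 at an unadjusted p under 0.05 (8.04%), and none passed adjustment (0.0%).

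In macrophages S100a10 was 323.1, 212.8 and 139.9 CPM in vehicle 1+3, 2 and 4 and 619.7 and 394.3 in Xevinapant samples (1.16 ± 0.33, adjusted p = 0.3234). S100a13 was 69.25, 56.32 and 50.08 against 105 and 101.1 CPM (0.80 ± 0.20, adjusted p = 0.3196), and S100a4 differed by 1.21 ± 0.38 (adjusted p = 0.3617). All 7 members tested were higher (49.2% of genes), 3 without overlap (13.1%), and 4 had an unadjusted p under 0.05 (9.9%) and none passed adjustment (0.0667%). The summed level of 6 monocyte markers in macrophages was 159.6 to 347.1 CPM in vehicle and 344.6 to 428.8 CPM in Xevinapant samples, with none of the 6 at 0 in any sample. That of 12 neutrophil markers was 153.3 to 224.5 CPM in vehicle and 231.4 to 449.3 CPM in Xevinapant samples, without overlap, and Ltf, Ngp and Camp were at 0 in every sample. In macrophages without a UMI of the monocyte markers, 43 to 229 cells a sample, the groups overlapped for S100a4 and S100a10 and lay apart for S100a6, at 3.942 to 29.68 CPM in vehicle and 43.69 and 76.9 CPM in Xevinapant samples, and for S100a13, at 47.31 to 63.41 and 78.98 and 81.14 CPM. Lacking such a UMI also depends on a cell's depth. The part of monocyte or neutrophil RNA in the macrophage values was not tested further.

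In dendritic cells S100a10 was 210.4, 144.5 and 158.6 CPM in vehicle 1+3, 2 and 4 and 657.5 and 423.2 in Xevinapant samples. The groups lay apart, with a difference of 1.66 ± 0.37 and the smallest adjusted p of the members (0.07057). S100a4 (1.77 ± 0.52), S100a6 (1.42 ± 0.49) and S100a11 (1.36 ± 0.45) were also apart, so 4 of 5 tested were higher (51.3% of genes) and above without overlap (11.3%). The same number had an unadjusted p under 0.05 (8.71%), with none past adjustment (0.122%). The shares of cells with a UMI, thinned to 1000 UMIs, did not lie apart for these 4 genes. For S100a10 they were 14.83, 9.721 and 15.07% in vehicle 1+3, 2 and 4 and 35.23 and 12.91% in Xevinapant 1+2 and 3+4. The summed level of 6 monocyte markers in dendritic cells was 1045 to 1351 CPM in vehicle and 1260 to 1817 CPM in Xevinapant samples, and Chil3 was at 0 in all but Xevinapant 3+4. That of 11 macrophage markers was 8038 to 15060 CPM in vehicle and 4813 to 7044 CPM in Xevinapant samples, with Cd163 at 0 in all but Xevinapant 3+4. On leaving out 1 sample the S100a10 difference ran from 1.31 to 1.97, the highest without Xevinapant 3+4. Fits without a Xevinapant sample leave 1 in that group, assumed to vary like the vehicle samples. The part of these markers in the result was not tested.

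Some types had values in the other direction. S100a6 in endothelial cells was 314.1, 400.8 and 373.5 CPM in vehicle 1+3, 2 and 4 and 170.1 and 152.3 in Xevinapant samples, without overlap (-1.20 ± 0.26, adjusted p = 0.2529). S100a10 was also below without overlap, at 541.4, 484.8 and 459.7 against 426.9 and 393.3 CPM, so 2 of 4 members were below (10.7% of genes). S100a13 was above, at 100.3, 84.03 and 64.64 against 128.4 and 126.9 CPM, 1 of 4 (13.4% of genes, and 49.2% by the sign of the fold alone). The summed level of 12 malignant-cell markers in endothelial cells was 639.9 to 1401 CPM in vehicle and 347.1 to 609 CPM in Xevinapant samples, with Nkx2-2 at 0 in vehicle 2, and their part in these values was not tested. Of the 4, 1 had an unadjusted p under 0.05 (8.47%) and none passed adjustment (0.0%). In microglia S100a10 was 41.82, 55.2 and 47.56 CPM against 29.97 and 27.63 (-0.70 ± 0.23, adjusted p = 0.8514), the only 1 of 4 members below without overlap (12.6%), and 1 of 4 was higher (49.5%). In T cells 2 of 4 members were below without overlap (15.9%), 1 was higher (53.2%) and none had an unadjusted p under 0.05 (5.72%), and in fibroblasts all 6 were higher (47.9%), 1 was apart (11.4%) and none had such a p (6.53%). Over the 8 types, 45 differences were tested, 35 were positive (47.9 to 53.2% of genes per type) and 18 had an unadjusted p under 0.05 (5.61 to 11.1% of genes per type). None passed adjustment in edgeR (0.0 to 0.122% of genes per type) and DESeq2 called 2 (0.0105 to 1.97% of genes per type).

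**Figure D5:**
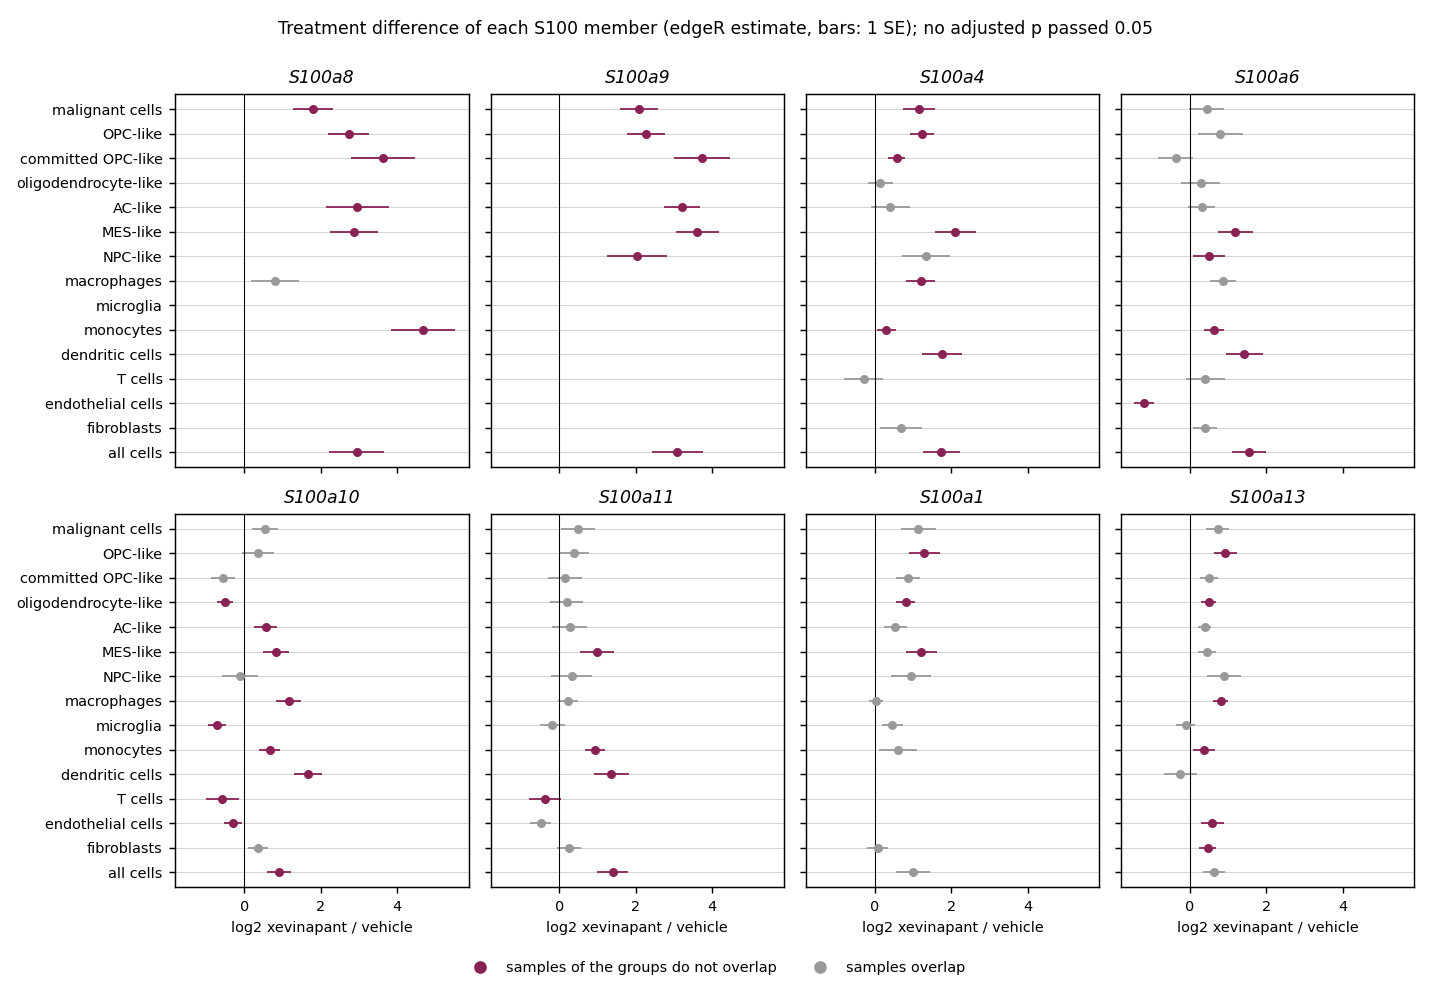
Difference between Xevinapant and vehicle (horizontal axis, log2 from edgeR, bars ±1 SE) for each member in each cell type with a test. Purple points mark members whose samples do not overlap between groups and grey points those that do; no adjusted p was under 0.05, and the differences run from -1.20 (S100a6 in endothelial cells) to 4.68 (S100a8 in monocytes).

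Whether the difference with treatment in malignant cells was unlike that in another type was tested by interaction in edgeR, 37 pairs of member and type. Between 0.0563 and 1.45% of genes per type were called. S100a6 in endothelial cells was called, malignant minus endothelial 1.78 ± 0.33 (adjusted p = 9.319e-05, where 0.128% of genes were called). S100a1 in macrophages was also called, 1.06 ± 0.28 (adjusted p = 0.01709, 1.45% of genes). S100a1 in macrophages was 76.94, 112.6 and 94.99 CPM in vehicle and 94.6 and 92.23 in Xevinapant samples, a difference of 0.03 ± 0.19. The summed level of the 12 malignant-cell markers in macrophages was 541.1 to 1093 CPM in vehicle and 255.6 to 516.9 CPM in Xevinapant samples, with Nkx2-2 at 0 in vehicle 2, and their part in the result was not tested. Committed OPC-like cells, the state with the highest mean of S100a1, were 7.245, 4.356 and 3.001% of malignant cells in vehicle 1+3, 2 and 4 and 11.26 and 6.205% in Xevinapant 1+2 and 3+4, which overlap. OPC-like cells, the state with the third highest mean, were 35.14, 37.16 and 41.06% against 32.48 and 26.23%, lower without overlap, and MES-like cells were 13.88, 17.3 and 11.86% against 21.69 and 18.25%, higher without overlap. The part of this makeup was not tested. Both calls were lost without single samples: the first without vehicle 4 (1.32, adjusted p = 0.09267), without Xevinapant 1+2 (2.01, 0.1602) and without Xevinapant 3+4 (1.49, 0.6531), and the second without vehicle 2 (0.94, 0.3722), without vehicle 4 (0.73, 0.392) and without Xevinapant 1+2 (0.37, 1.0). Of the pairs that were not called, S100a8 in malignant cells against monocytes had -3.19 ± 0.93 (adjusted p = 0.1255).

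The share of cells with a UMI, thinned to 1000 UMIs per cell, was compared for 46 pairs of member and type. Both Xevinapant samples were above every vehicle sample in 15, below in 3 and overlapped in 28, where 9.82 to 18.7% of all genes per type were above and 7.19 to 20.4% below. The S100a4 share of malignant cells averaged 1.524% in vehicle and 3.06% in Xevinapant samples (exact permutation test, two-sided, p = 0.2). In macrophages the S100a6 share was 4.377 and 10.44%, and the S100a13 share 5.325 and 9.721% (exact p = 0.1 each, the smallest that 3 against 2 samples allow). In monocytes 5 members were above (18.7% of genes) with an exact p of 0.3333, the smallest that a two-sided test of 2 against 2 samples allows.

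Receptors, partners and companions of these proteins, in lists from textbook knowledge, were counted in the same comparison of malignant cells, where the median log2 difference of the 8 members was 0.93 and that of all genes 0.0047. Over all genes, 50.7% were higher and 11.1% had an unadjusted p under 0.05. Of 10 receptors of extracellular S100 proteins, 8 were higher with Xevinapant (median 0.37) and 2 had an unadjusted p under 0.05. Of 14 binding partners inside cells, 11 were higher (median 0.39) and 5 had such a p. The other S100 genes gave 4 of 4 higher (median 0.81, 1 with such a p) and other alarmins 4 of 5 (0.96, 3). All 6 late neutrophil genes, which were also markers of the gate, were higher (1.24, 2), and the early neutrophil granules had 1 gene tested. The mesenchymal genes often seen with S100a4 and S100a6, such as Vim and Cd44, were higher in 4 of 8 (median 0.11, 3 with such a p), a share near that of all genes. None of the genes in these lists passed adjustment in edgeR in this or any other comparison.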

How the data were processed

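The deposited matrices hold raw UMI counts per gene and barcode, which the authors made with Cell Ranger (7.1.0 in the matrix headers) on mm10; no normalization had been applied and 0 columns were unused. Kept barcodes had 200 genes or more, complexity (log genes over log UMIs) of 0.8 or more, and mitochondrial UMIs of no more than 10%. Cells were typed with 164 marker genes, at least 3 of an immune type, and barcodes with markers of 2 lineages were set aside; doublets were not otherwise removed. Matrices of a group were summed when their cell makeup differed by a chi-square per degree of freedom under 2 (1.069 to 1.238 in the joined pairs, at least 7.457 in the others); the labels tie no matrix to a mouse, so p-values measure only the spread between these samples, which may be technical. UMIs were summed per sample and type with at least 10 cells and tested with edgeR 4.0.16 (R 4.3.3; quasi-likelihood, TMM, filterByExpr, Benjamini-Hochberg over all genes tested), with DESeq2 1.42.0 as an alternative, and checked on simulated data. The order of cell types used a sample block and contrasts of neighbors by mean log2 CPM. Shares were compared by exact permutation (SciPy 1.17.1) after thinning to 1000 UMIs, which left fewer cells in some types.

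The text names all 8 members and, for each, the 3 genes of highest Pearson r of mean log2(CPM + 1) over cell types, among genes of at least 100 CPM in 1 type. Genes outside the members given in the additional observations were chosen after their values were seen. The members, marker genes and lists were chosen with earlier results of these data known. The depth was 71835789 to 300206053 UMIs per matrix, with a median of 7452 to 14027 UMIs per cell, and intervals and the floor of 3 UMIs cover counting error only. Alternatives were another count test, normalization, filter, gate, quality limit, thinning, each matrix as a sample and leaving out each sample. The neutrophil treatment test and the comparison of neutrophils with monocytes by treatment could not be run. The count over the NADPH oxidase genes is not reported here.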

Additional observations from a re-analysis of the deposited data

Results flagged for a closer look

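The difference with treatment was unlike between cell types for S100a1, with malignant cells 1.06 (log2) above macrophages, and for S100a6, with malignant cells 1.78 above endothelial cells, each by an interaction test in edgeR. Each call was lost when certain single samples were left out. Immune barcodes without a type entered the comparison over all kept cells but no treatment test of a cell type. In them 1813 UMIs of S100a8 and S100a9 were counted, 94.1% of them in 36 of 465 cells, and 400 of the cells had none.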

How the results depend on the processing

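No member passed an adjusted p of 0.05 with treatment in the 8 cell types (0 of 45), the 6 tumor states (0 of 45) or all cells (0 of 8). In cell types the count became 2 with DESeq2, 10 without a filter on low counts and 1 (S100a9 in malignant cells) with each matrix counted as 1 mouse. Leaving out 1 sample gave 0 to 7, with 7 without Xevinapant 3+4 and 1 without Xevinapant 1+2. Those fits, here and in the other comparisons, have 1 Xevinapant sample, assumed to vary like the vehicle samples, so calls gained there do not bear on stability. In tumor states it became 5 with DESeq2, 7 without the filter and 4 with each matrix, and 0 to 2 on leaving out 1 sample, with 2 without vehicle 1+3. In all cells it became 4 with DESeq2, 4 with each matrix and 0 to 4 on leaving out 1 sample, with 4 without Xevinapant 3+4. The cause of these shifts was not tested. The count stayed at 0 in cell types without TMM, with thinned counts, with 1 more marker, with mixed barcodes kept, without cells of high Scrublet score, at 5% mitochondrial UMIs and, chosen after seeing the data, without shared barcodes. The interaction gave 2 calls and 0 to 6 on leaving out 1 sample, with 6 without vehicle 1+3, 1 without vehicle 2 and 0 without Xevinapant 1+2. The order gave 14 calls over cell types (12 to 15) and 11 over states (9 to 12). Of 18 shares apart between groups, 3 were apart with each matrix counted, and 15 to 34 on leaving out 1 sample, with 34 without vehicle 1+3 and 31 without Xevinapant 3+4. No difference with an unadjusted p under 0.05 in edgeR, and neither called interaction, reversed. The signs of the other differences were less stable. In cell types 35 were higher and 10 lower, against 32 and 13 without Xevinapant 1+2. In tumor states 41 were higher and 4 lower, against 39 and 6 without vehicle 2. No paired analysis was possible because the joined samples carry no replicate number shared between groups. With 3 samples against 2, and under 50 cells of several types in a sample, small differences could not be seen.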

Other observations

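The receptors of extracellular S100 proteins had their highest levels in different cells. Tlr4, the receptor best known for calprotectin, averaged 226.9 CPM in neutrophils, 79.81 in macrophages, 75.43 in microglia and 1.962 in malignant cells, and its co-receptor Cd14 was highest in neutrophils at 667.7 CPM. Ager, which encodes RAGE, was low everywhere, with its highest mean of 10.75 CPM in neutrophils. Bsg, a receptor of S100A9, was present in malignant cells at 287.2 CPM and highest in fibroblasts at 547.7, Cd36 was highest in macrophages at 1265 and Mcam in endothelial cells at 1942.

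Anxa2, the annexin that binds S100A10, was highest in monocytes at 1354 CPM and stood at 1196 in neutrophils and 74.09 in malignant cells. Ncf1 (1171 CPM) and Ncf4 (519), which encode chains of the NADPH oxidase, were highest in neutrophils, where calprotectin was also highest, and the membrane chain Cybb was highest in microglia at 925.8. S100a16 (330.8 CPM) and S100b (152.4 CPM), S100 genes outside the members, were highest in malignant cells, as S100a1 was. These are means over samples, given as a description with no test.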
